A study of Mus musculus with 10 samples.

Results

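The mitochondrial ribosomal protein genes were taken from a comparison of whole kidneys of wild-type mice. They were defined by symbol and gene type: a deposited transcript was joined by its identifier to the mouse GENCODE vM21 annotation, and protein-coding genes whose symbol is Mrpl or Mrps followed by a digit were kept, each by the transcript that had the highest mean CPM. This gave 78 genes of 27876 gene symbols in the table, and these 78 genes account for 275 of the 85107 deposited transcripts. One group of mice received quinolinic acid, a product of the kynurenine branch of tryptophan breakdown, at 0.5 g/L in the drinking water, and the other group received vehicle. On day 14 the kidneys of 5 mice given quinolinic acid and 5 given vehicle were collected, all with a wild-type genotype and under 1 batch label. The submitters call the sequenced mice representative of their groups, and the age of the mice is not given.

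The values are those of the authors' deposited table, a finished comparison of the 2 groups by a likelihood-ratio test. It lists for each transcript a log2 fold change, the mean level over the libraries as CPM (library-scaled counts), and p before and after adjustment. The level of single mice was not analysed here and the depth of each library is unknown, so the error of a fold change is an approximate 95% interval worked out from the test statistic. Which group the fold change divides by which is not stated in the header. Signs are therefore given as deposited, and whether a positive sign stands for more or for less RNA after quinolinic acid is unknown. Kidney markers were abundant in the authors' deposited table, with 1430 CPM for the proximal tubule phosphate transporter gene Slc34a1 and 1274 CPM for Umod, which encodes uromodulin of the thick ascending limb.

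Mitochondria translate the few messenger RNAs of their own genome, which encode core subunits of the respiratory chain and ATP synthase, on a ribosome that differs from the cytosolic one. Its 2 ribosomal RNAs come from mitochondrial DNA, while all of its proteins are encoded in the nucleus, made in the cytosol and imported. Part of these proteins descend from the bacterial ribosome and part are found only in mitochondria. The large subunit joins amino acids and the small subunit reads the messenger RNA. Tubule cells of the kidney depend on oxidative phosphorylation for solute transport and are rich in mitochondria.

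Of the 78 members, 51 encode proteins of the large subunit and 26 proteins of the small subunit. Names and places do not always match: MRPS30 and MRPS18A are found in the large subunit despite their names. Mrps36 carries the name of a ribosomal protein, but its product is a component of the 2-oxoglutarate dehydrogenase complex of the citric acid cycle, and it is counted as a member by its symbol only. The members lie on 17 chromosomes, with 11 on chromosome 11 and 8 on chromosome 17.

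The sequence before the members' starts was searched for CCGGAAG, the letters recognised by ETS factors such as GABP, which is known for activating genes of mitochondrial proteins. RefSeq promoters of 300 bases (250 before and 50 after the start, build GRCm38.p6) were at hand for 69 of the 78 members. On either strand, 26 of the 69 (37.7%) held these letters, against 19.7% of 9907 coding genes of at least 1 CPM and 12.9% of all 17491 coding genes. A match is a run of letters, not a measured binding site. The 120 bases before the RefSeq start follow for the member with the smallest p, the member with the largest fold change at 1 CPM or more and the member with the highest mean CPM, with the match in capitals.
Mrps15 (chr4:126046808-126046927, plus strand, no match in these bases): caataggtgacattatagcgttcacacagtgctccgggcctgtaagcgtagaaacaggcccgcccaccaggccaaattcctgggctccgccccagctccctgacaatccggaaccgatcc
Mrps26 (chr2:130563637-130563756, plus strand, match on the opposite strand): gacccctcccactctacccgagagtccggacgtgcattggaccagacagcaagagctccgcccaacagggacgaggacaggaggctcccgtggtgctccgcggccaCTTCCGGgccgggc
Mrpl12 (chr11:120484517-120484636, plus strand, no match in these bases): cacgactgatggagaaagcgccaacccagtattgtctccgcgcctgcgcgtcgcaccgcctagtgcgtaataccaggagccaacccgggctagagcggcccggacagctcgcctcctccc

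No mitochondrial ribosomal protein gene passed the test. An adjusted p under 0.05 was reached by 0 of 78 members in the authors' deposited table, where 0.0141% of all transcripts, 0.0215% of genes and 0.0152% of genes of at least 1 CPM passed by the edgeR likelihood-ratio test, and the smallest adjusted p among the members was 0.788. At an unadjusted p under 0.05 there were 3 of 78 members (3.85%), against 5.12% of all genes and 4.09% of the 13115 genes of at least 1 CPM in the authors' deposited table. All 3 had a positive sign, and 3.2% of the genes of at least 1 CPM had such a p with a positive sign. The share of members with a small p was thus near that of genes in general. In whole tissue, a change in the number of cells of a type and a change in RNA per cell cannot be told apart.

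The members shared a sign. A positive log2 fold change was listed for 77 of 78 members in the authors' deposited table, where 71.8% of genes of at least 1 CPM and 51.4% of all transcripts had one. Other short coding genes of at least 1 CPM were mostly positive too, 93.6% of those under 1000 nt and 91.3% from 1000 to 2000 nt. These lengths hold 53 of the members. The members' median was 0.16 (middle 50% from 0.12 to 0.20), a 1.11-fold difference, against a median of 0.08 for all genes of at least 1 CPM. Among the 77 members of at least 1 CPM, fold changes computed from the authors' deposited table ran from 0.989 to 1.22. The approximate 95% interval held 0 for 75 of the 78 members, and for those of at least 1 CPM no interval reached below -0.35 or above 0.64 on the log2 scale. The spread among the members was smaller than the error of a single member. The standard deviation of the log2 fold change over 77 members was 0.066, while the median approximate standard error of a single member was 0.13. All 78 intervals held the common median. The error of a difference between members cannot be had without values per library, so the order of members given below was not tested and is not established. The members were measured in the same 10 libraries, and their values are not independent of each other.

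**Figure D1:**
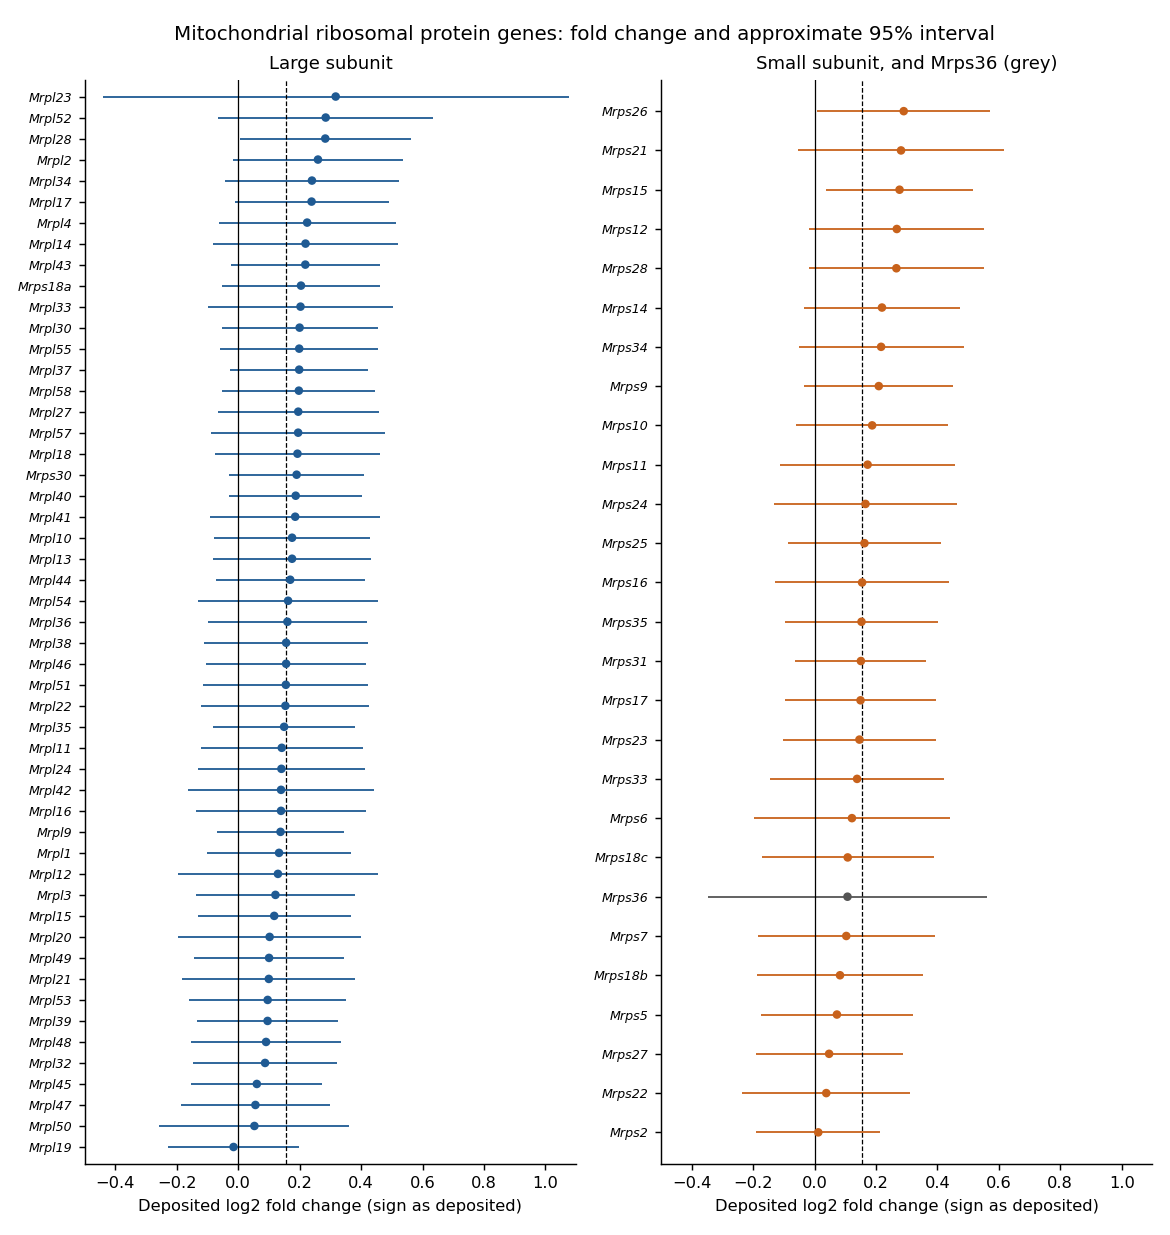
Deposited log2 fold change of each of the 78 members (points) with its approximate 95% interval (lines), large subunit on the left (n = 51) and small subunit with Mrps36 on the right. The solid vertical line marks 0 and the dashed line the median of 0.16, which every interval holds; only Mrpl19 lies below 0.

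The smallest p belonged to Mrps15, a small subunit protein shared with bacteria (chromosome 4, 126046925 to 126055532, mm10, 8 exons). The authors' deposited table gives it a log2 fold change of 0.28 with an interval of 0.04 to 0.52, a mean of 17.9 CPM and p = 0.0235 (adjusted p = 0.788). Mrps26, a small subunit protein specific to mitochondria (chromosome 2, 130563742 to 130568695, 4 exons), had the largest log2 fold change among members of at least 1 CPM, 0.29 (0.01 to 0.57; 20.4 CPM, p = 0.0428) in the authors' deposited table. Mrpl28, a large subunit protein shared with bacteria (chromosome 17, 26123500 to 26126613, 5 exons), stood at 0.28 (0.00 to 0.56; 34.0 CPM, p = 0.0467) in the authors' deposited table. The lower bounds of all 3 intervals lay close to 0.

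These were followed by 5 members whose intervals held 0, with p from 0.0620 to 0.0770 in the authors' deposited table. Mrpl17, a large subunit protein at the bacterial L17 position, had a log2 fold change of 0.24, and Mrpl2, a core protein that holds ribosomal RNA near the peptidyl transferase centre, one of 0.26 in the authors' deposited table. For the small subunit, Mrps12, the counterpart of the bacterial decoding-centre protein S12, and Mrps28 both stood at 0.27 in the authors' deposited table. Mrpl43, specific to mitochondria, had a log2 fold change of 0.22 in the same deposited table of the authors. Mrpl52, also specific to mitochondria and with the shortest transcript of all members (418 nt), had one of 0.28 (-0.07 to 0.64) in the authors' deposited table.

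At the other end stood 3 members near 0. Mrpl19, a large subunit protein shared with bacteria (chromosome 6, 81957851 to 81965958, 5 exons), was the 1 member with a negative sign, -0.015 (95% interval -0.23 to 0.20, 9.64 CPM, p = 0.889), in the authors' deposited table. Mrps2 had a log2 fold change of 0.012 (-0.19 to 0.21) and Mrps22, specific to mitochondria, one of 0.038 (-0.23 to 0.31) in the authors' deposited table. Mrps2 was represented by a non-coding transcript, and its coding transcript had the same rounded value, 0.012, in the authors' deposited table. Mrpl19 shares 38.7% of the 50-base windows of its transcript with Gcfc2, which overlaps it on the opposite strand, and no source used here says whether reads were counted by strand.

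The 2 subunits had similar medians. The 51 large subunit members had a median log2 fold change of 0.16 (middle 50% from 0.13 to 0.20), with 50 positive, and the 26 small subunit members one of 0.15 (0.11 to 0.21), all positive, computed from the authors' deposited table. By origin, the 46 members shared with the bacterial ribosome had a median of 0.16 with 45 positive, and the 29 specific to mitochondria one of 0.16 with all 29 positive. The 3 paralogs of bacterial S18 sit in different places. Mrps18c, the small subunit form, had a log2 fold change of 0.11, Mrps18b, a second small subunit protein, one of 0.083, and Mrps18a, of the large subunit, one of 0.20 in the authors' deposited table. Their intervals overlapped and each held 0. For Mrps36 the authors' deposited table lists 0.11 (-0.35 to 0.56) and 3.91 CPM. Ogdh, Dlst and Dld, the other subunits of the enzyme that its product belongs to, stood at 0.046, 0.11 and 0.078 in the authors' deposited table.

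Most members had mean levels within a limited range. Of 78, 63 lay between 10 and 35 CPM in the authors' deposited table, and 77 reached 1 CPM. These 77 ran from 3.91 to 87.4 CPM. Per kilobase of the coding transcript, the mean level had a median of 15.0 CPM per kb, with 19.0 for the large subunit (middle 50% from 8.47 to 28.3) and 10.05 for the small subunit (6.64 to 17.4). Long annotated 3' ends lower this value, so it compares annotated transcripts and not the amounts of protein. The highest mean level of any member belonged to Mrpl12, the L7/L12-type stalk protein that helps recruit translation factors, with 87.4 CPM or 66.4 CPM per kb in the authors' deposited table. Its log2 fold change was 0.13 (-0.20 to 0.46). Mrpl24, Mrpl20 and Mrps6 followed by mean CPM, with 41.1, 65.9 and 53.4 CPM per kb and log2 fold changes of 0.14, 0.10 and 0.12 computed from or listed in the authors' deposited table. At the low end of CPM, after Mrpl23 and Mrps36, were Mrps33 (5.06 CPM per kb, log2 fold change 0.14) and Mrps18b (6.18 CPM per kb) in the authors' deposited table. Mrps36, Mrps33 and Mrps18b share 36.2%, 21.0% and 30.9% of their 50-base windows with genes elsewhere in the genome. They are among 7 members with over 20% of windows elsewhere. No source used here says how reads from such windows were counted, so these low levels are uncertain.

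**Figure D2:**
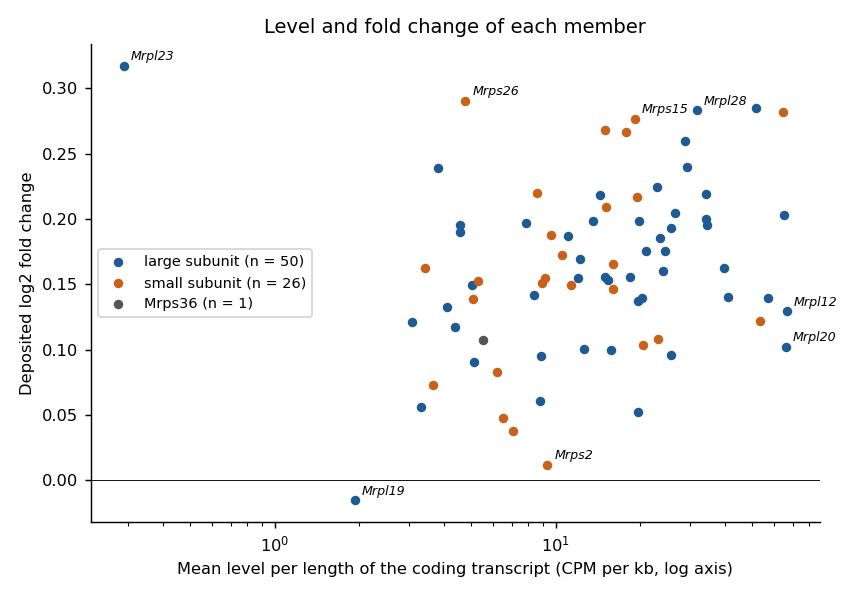
Mean level per kilobase of the coding transcript (horizontal, log axis) and deposited log2 fold change (vertical) of the 77 members with a coding transcript in the table, coloured by subunit. Mrpl23 stands alone at 0.291 CPM per kb, and the other members lie from 1.93 to 66.4 CPM per kb.

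Mrpl23 stood apart by its level. This large subunit protein, the counterpart of bacterial L23 at the exit of the peptide tunnel (chromosome 7, 142533012 to 142540747, 5 exons), was listed at 0.201 CPM in the authors' deposited table, while the next lowest member, Mrps36, was listed at 3.91 CPM. Its log2 fold change was 0.32 (95% interval -0.44 to 1.08, p = 0.412), and its 4 transcripts ran from -0.26 to 0.32 in the authors' deposited table. A processed pseudogene, Mrpl23-ps1 (chromosome 2, 74591330 to 74591909), is identical to the Mrpl23 transcript over 540 aligned bases (100% identity), which include the coding region (bases 167 to 604 of the transcript), and 76.4% of its 50-base windows also occur there. Mrpl23-ps1 itself was listed at 0.113 CPM in the authors' deposited table. Reads from such a stretch cannot be assigned to one of the copies, and no source used here says how they were counted, so the value of Mrpl23 is uncertain. Of all members, Mrpl23 was the only one with over 50% of its windows in a gene elsewhere in the genome. The first 60 coding bases are shown as an example of the identical stretch.
Mrpl23 transcript, bases 167 to 226 (chromosome 7): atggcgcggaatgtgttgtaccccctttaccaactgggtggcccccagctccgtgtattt
Mrpl23-ps1 transcript, bases 18 to 77 (chromosome 2): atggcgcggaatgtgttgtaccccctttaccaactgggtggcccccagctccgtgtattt

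The fold changes of the members were set against transcript length, since the log2 fold change fell with length over all genes. Spearman's rho of the log2 fold change with annotated length was -0.53 across 12632 coding genes of at least 1 CPM and -0.26 across 77 members, as a description over genes measured in the same libraries. The 25 members under 1000 nt had a median log2 fold change of 0.19, and the 629 other coding genes of that length one of 0.18. From 1000 to 2000 nt the medians were 0.16 for 28 members and 0.15 for 2478 other genes. The 24 members of 2000 nt or more had a median of 0.15 with 23 positive, against 0.045 for 9448 other genes. Of those other genes, 80.3% were positive from 2000 to 4000 nt and 46.6% from 4000 nt upward. In the 8 members of 4000 nt or more the median was 0.14, against -0.0087 in 4287 other genes. The medians of short members were thus close to those of other short genes, and the medians of longer members lay above those of genes of their annotated length. The 2 longest classes hold 16 and 8 members, and the difference was not tested.

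**Figure D3:**
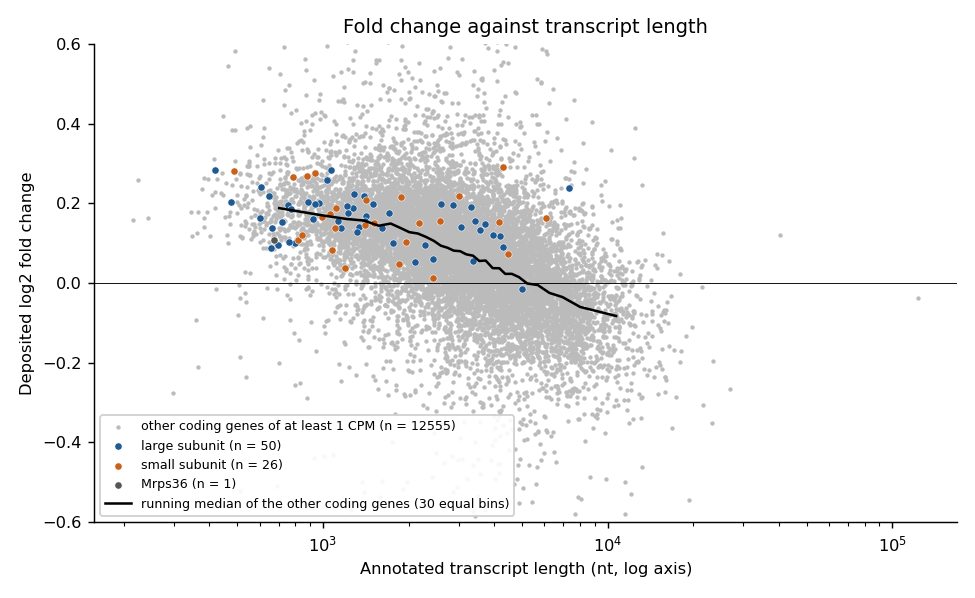
Deposited log2 fold change against annotated transcript length (log axis) for the 77 members of at least 1 CPM, coloured by subunit, and 12555 other coding genes (grey), with the running median of the grey genes (black line) in 30 bins of equal size. Members under 1000 nt lie around the black line, while most of those over 2000 nt lie above it; 102 grey points lie beyond the vertical range of -0.6 to 0.6.

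With the trend on length and mean level removed by loess over the 12632 coding genes, the members' median was 0.014 on the log2 scale, with 43 of 77 positive, against -0.0035 in the other coding genes. The 53 members under 2000 nt then had a median of -0.0027 with 25 positive. The 24 longer members had a median of 0.072 with 18 positive, while 48.4% of the 9448 other genes of that length were positive. The largest remainders belonged to Mrpl17 (0.28, annotated length 7300 nt) and Mrps26 (0.25, 4278 nt). For Mrpl17 a coding transcript of 1028 nt held 25.2 of the 27.9 CPM and had a log2 fold change of 0.26 (p = 0.0382) in the authors' deposited table, and measured by that length its remainder was 0.086. A further transcript of Mrps26, of 1057 nt, was listed at 20.1 CPM in the authors' deposited table, but it is annotated as retaining an intron. When each gene was given its shortest coding transcript with at least 90% of its highest CPM, a choice made after seeing the data, the 24 longer members had a median remainder of 0.073, but only 5 of them have such a shorter transcript. The part that unannotated or differently used 3' ends have in this was not tested.

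**Figure D4:**
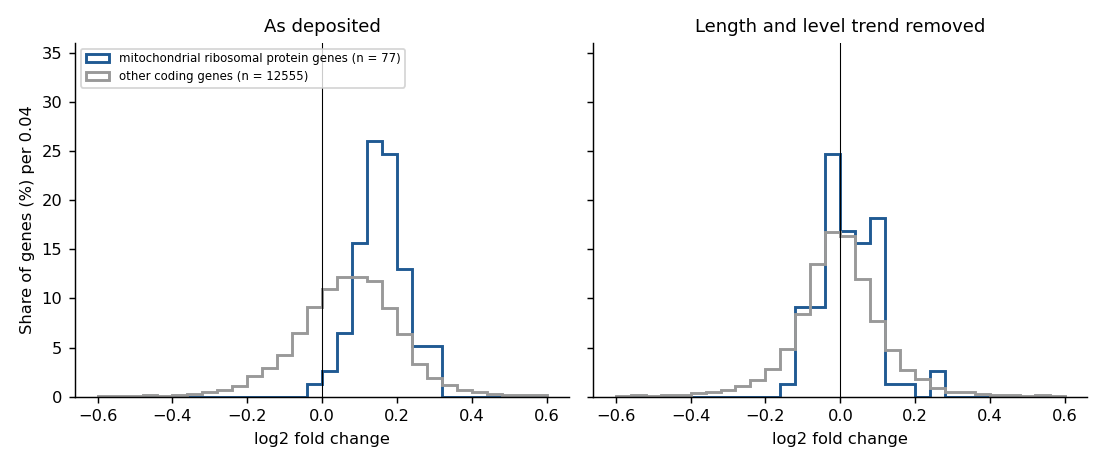
Share of genes in bins of 0.04 by log2 fold change, for the 77 members of at least 1 CPM (blue) and 12555 other coding genes (grey), as deposited (left) and with the length and level trend removed (right). The blue curve has its median at 0.16 on the left and at 0.014 on the right, and it is narrower than the grey curve in both; values beyond 0.6 in size are not drawn.

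The spread of the members was smaller than that of all other coding genes of at least 1 CPM. The standard deviation of the log2 fold change was 0.066 over 77 members and 0.17 over 12555 other coding genes, and with the trend removed 0.077 and 0.15. The 74 cytosolic ribosomal protein genes of at least 1 CPM had 0.060, and 0.067 with the trend removed. Of the other lists below, synthetases (0.064) and assembly factors (0.075) were also narrower than the members with the trend removed. Translation factors (0.10), other mitoribosome proteins (0.11) and transcription and replication genes (0.13) were then wider. As deposited, all of these other lists were wider. Transcripts of the same member mostly had similar values. For the 58 members with more than 1 deposited transcript, the median span between the lowest and the highest log2 fold change was 0.052 in the authors' deposited table. The span was over 0.2 in 6 members, and the widest was 0.58, in Mrpl23. Of the 275 transcripts 264 had a positive and 11 a negative sign, the negative ones from 8 genes, and transcripts of a gene share reads. An unadjusted p under 0.05 was listed for 12 of the 275 (4.36%), against 6.08% of all transcripts in the authors' deposited table.

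The partners of these proteins were examined next. The 2 ribosomal RNAs had log2 fold changes of 0.16 for mt-Rnr1, the RNA of the small subunit (-0.29 to 0.60), and 0.25 for mt-Rnr2, that of the large subunit (-0.19 to 0.69), in the authors' deposited table. Of 5 mitoribosome proteins that do not carry an Mrp symbol, all 5 were positive with a median of 0.19, where 71.8% of genes of at least 1 CPM were positive. Dap3, a GTP-binding small subunit protein, stood at 0.22 (-0.02 to 0.45) and Aurkaip1, also of the small subunit, at 0.23 (-0.04 to 0.51) in the authors' deposited table. None of the 5 had an unadjusted p under 0.05 in the likelihood-ratio test by edgeR, and none passed over all transcripts.

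Of 26 genes for assembly of the mitoribosome and modification of its RNA, 23 (88.5%) were positive with a median of 0.12 and 2 had an unadjusted p under 0.05. Among all genes of at least 1 CPM, 71.8% were positive and 4.09% had such a p. The 2 assembly genes were Rcc1l, which is needed for assembly of both subunits (0.26, 0.05 to 0.47, p = 0.0152), and Mtg1, a GTPase of large subunit maturation (0.26, 0.01 to 0.51, p = 0.0420), in the authors' deposited table. The 16 translation factors had a median of 0.094 with 14 (87.5%) positive. Tsfm, the exchange factor of the mitochondrial elongation factor Tu, had the smallest p on the lists of mitochondrial genes examined, p = 0.00866 (adjusted p = 0.698), beside a log2 fold change of 0.33 (0.08 to 0.58) in the authors' deposited table. C1qbp, a matrix protein needed for mitochondrial translation, stood at 0.25 (-0.01 to 0.51) in the authors' deposited table.

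The 17 mitochondrial aminoacyl-tRNA synthetases, which charge tRNAs inside mitochondria, had a median of 0.048. Of them 14 (82.4%) were positive, against 71.8% of genes of at least 1 CPM. The smallest p belonged to Yars2 (0.20) and Tars2 (0.13) in the authors' deposited table. The 16 genes of mitochondrial transcription and replication and their regulators were evenly split, with 8 positive and a median of 0.0026. Ppargc1b, a coactivator of respiratory genes, had a negative sign at -0.31 (p = 0.0499) and Polg2, a subunit of the mitochondrial DNA polymerase, a positive one at 0.25 (p = 0.106) in the authors' deposited table. The transcripts of these lists differ in length, with a median of 1302 nt for the members, 2178 for assembly factors, 2563 for translation factors, 3349 for synthetases and 3536 for the transcription and replication genes. After removal of this trend the medians were 0.0045 for assembly factors, 0.017 for translation factors, 0.0038 for synthetases and -0.042 for transcription and replication genes. The 76 cytosolic ribosomal protein genes, with a median length of 929 nt, were all positive with a median of 0.18, and 0.0095 with the trend removed. No gene on any of these lists passed over all transcripts in the authors' deposited table.

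**Figure D5:**
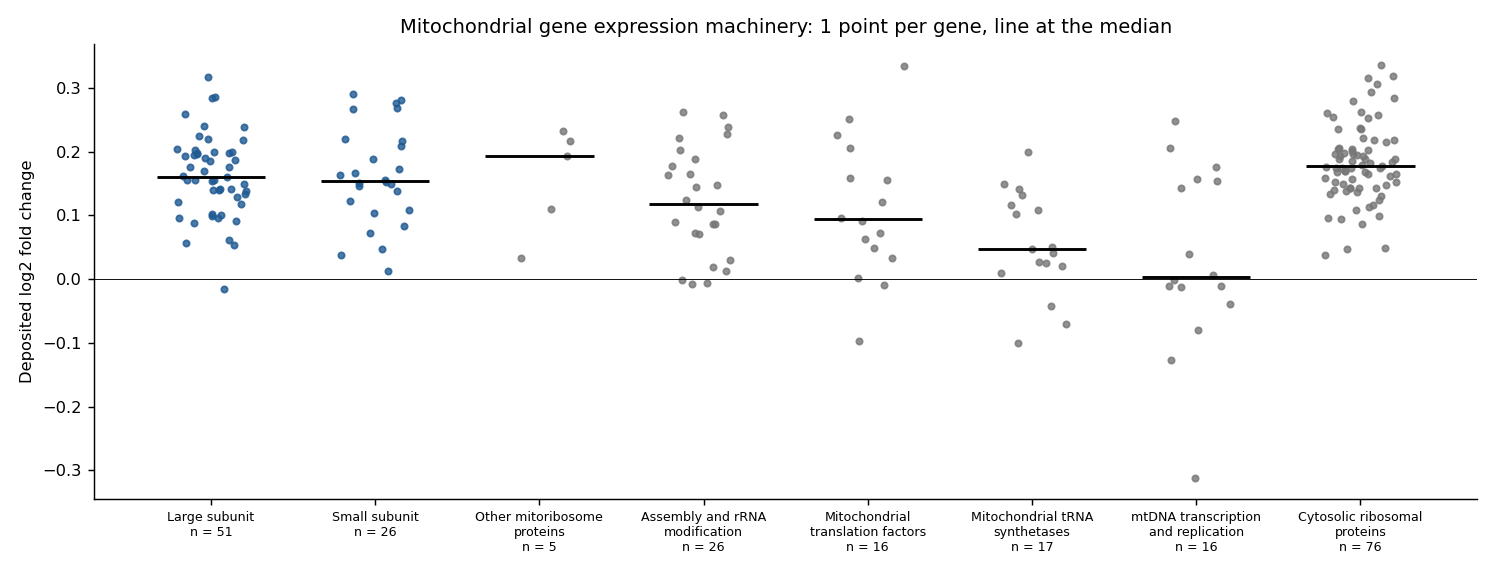
Deposited log2 fold change of each gene (points) and the median of each list (lines) for the 2 subunits (blue) and 6 further lists (grey). The medians step down from 0.19 for the other mitoribosome proteins to 0.0026 for mitochondrial transcription and replication, and the cytosolic ribosomal proteins lie at 0.18.

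Many members start close to another gene. By the outermost annotated start of each gene, 18 of the 78 (23.1%) have a coding gene on the opposite strand whose start lies within 1000 bases upstream, against 9.79% of the 12632 coding genes of at least 1 CPM. Mrpl46 and Mrps11, a pair of members, are not counted because their outermost spans overlap, although the transcripts that represent them point away from each other on chromosome 7, Mrpl46 from 78783089 and Mrps11 from 78783119. Their log2 fold changes were 0.16 and 0.17 in the authors' deposited table. Of the 16 partners of at least 1 CPM, 13 were positive, the median being 0.081, where 71.8% of all genes of at least 1 CPM were positive. None of the partners had an unadjusted p under 0.05 in the edgeR likelihood-ratio test of the authors' deposited table. Mrps12 and Sars2, the mitochondrial seryl-tRNA synthetase gene, start 172 bases apart and had log2 fold changes of 0.27 and 0.11 in the authors' deposited table. Mrpl49 and Fau, a gene encoding a fusion with cytosolic ribosomal protein S30, start 59 bases apart and stood at 0.10 and 0.16 in the authors' deposited table.

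Markers of other tissues were examined beside the members. All 6 fat markers were positive, with a median of 3.63 and mean levels from 0.0660 to 21.7 CPM. Among them was Ucp1, the uncoupling protein of brown fat, a tissue rich in mitochondria, at 3.48 and 0.184 CPM in the authors' deposited table. The most abundant, Fabp4 at 21.7 CPM, stood at only 0.19 (-0.16 to 0.54), while the others were listed at 1.43 CPM or less. All 5 liver markers were positive with a median of 1.20, and the one with the smallest p was Fgb (1.05, 3.37 CPM) in the authors' deposited table. The most abundant liver marker, Serpina1a at 26.9 CPM, stood at 0.14 (-0.32 to 0.60). The 3 muscle markers had a median of 0.15, and 2 of them were listed under 0.1 CPM. Their levels in each group cannot be given from a table of means, and their part in the members' values was not tested.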

How the data were processed

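RNA of whole kidneys was sequenced from 5 mice given quinolinic acid and 5 given vehicle, grouped by the sample titles. The submitters' processing notes name STAR 2.5.3a, edgeR, FastQC 0.11.2, featureCounts and Subread 1.4.6, with mm10 as the build. Depths, strand setting, filters and annotation release are not given in the sources used here. The log2 fold change and mean log2 CPM, the likelihood-ratio score, the p-value and the adjusted p were used as deposited by the authors. The deposited p-value was that of a chi-square with 1 degree of freedom, and the adjusted p the Benjamini-Hochberg value over all 85107 transcripts.

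Of these, 83446 (98.0%) matched GENCODE vM21 (GRCm38, the assembly of mm10) by identifier without version. Dividing a fold change's size by the root of its score gave the standard error. It carries whatever spread between libraries the authors' model holds. Loess (R 4.3.3, span 0.5) removed the trend on log2 length and mean level, and was tested on simulated data. Shared sequence was counted as exact 50-base windows in other genes' vM21 transcripts. Python 3.11.15, numpy 2.4.6, pandas 2.3.3, scipy 1.17.1 and matplotlib 3.10.9 did the rest.

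The members and lists were chosen with earlier results of these data known. Named were the 8 members with the smallest p, the 3 highest and 3 lowest log2 fold changes of at least 1 CPM, the 4 highest and 4 lowest mean CPM, members with a negative sign, and up to 3 genes of each other list. The S18 paralogs, the partners of Mrps36, head-to-head pairs and genes with large remainders were named after their values were seen.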

Additional observations from a re-analysis of the deposited data

How the results depend on the processing

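No paired analysis was possible because the table holds a finished comparison and no values per library, and for the same reason leaving out single replicates was not run. No member passed at an adjusted p under 0.10, with the adjustment over 1 row per gene or over genes of at least 1 CPM, or with the coding or the longest coding transcript of each gene. The smallest adjusted p over these choices lay between 0.788 and 0.918, and the count at an unadjusted p under 0.05 was 3 with the other choices of transcript. Fewer members were positive with the trend removed. Once the trend on length and level was taken out, the median log2 fold change was 0.014 and 43 of 77 members were positive. Of the 12555 other coding genes, 6092 were then positive. With GC content removed as well, the median was 0.018 and 45 were positive. With other spans, length alone or another transcript, the remainder's median ranged from 0.0075 to 0.023. Choices of transcript and the filter at 1 CPM left the deposited median at 0.16. Among the 41 members with under 5% of windows shared with another gene, a choice made after seeing the data, all 41 were positive, with a median of 0.16. The depth of the libraries is unknown, and the median standard error of 0.13 limits what a single member can show.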

Other observations

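Shared sequence touched many members beside Mrpl23. Of 77 members with a coding transcript, 47 shared at least 1 window of 50 bases with another gene and 17 shared over 20%. Mrpl53 shared all of its windows with the gene model Gm42688 on its own strand. Mrps25 shared 73.9% of its windows with Nr2c2 and Mrps34 52.4% with Mapk8ip3, each on the opposite strand. Mrps18b shared 63.7% of its windows with other genes. Without knowledge of the strand setting, it is unknown whether reads of the pairs on opposite strands were told apart. For Mrpl53 and Gm42688, which lie on the same strand, that setting would not separate the reads. In the authors' deposited table Mrps25 had a log2 fold change of 0.16, Mrps34 one of 0.22, Mrpl53 one of 0.096 and Mrps18b one of 0.083, and the intervals of all 4 held the members' median.

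The 12 member transcripts with an unadjusted p under 0.05 came from 5 genes and were all positive, and 0 passed the adjustment in the edgeR test of the authors' deposited table (smallest adjusted p 0.416). The smallest p belonged to a non-coding transcript of Mrps15 (328 nt, 2.13 CPM), with a log2 fold change of 0.48 and p = 0.00101 in the authors' deposited table. The coding transcript of Mrps15, with 17.9 CPM, stood at 0.28. Pseudogenes named after members were scarce. Mrps36-ps2 was listed at 0.0241 CPM with a log2 fold change of -3.70 (p = 0.00943, adjusted p 0.707), and Mrpl48-ps at 0.0512 CPM with 0.31 in the authors' deposited table.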
